A study of Mus musculus with 9 samples.

Results

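The genes that license and copy DNA were read across tumors and islets. The set holds 52 genes in 13 roles, from the minichromosome maintenance (MCM) helicase and the origin recognition complex (ORC) to the polymerases, the sliding clamp and the factors that guard the fork. They were chosen by name and by known role, not by their values, from the 54347 genes of the deposited table. Earlier results of these data were known at that time. Each of the 52 was found there, and each was among the 15532 genes that passed the filter on low counts, which asked for 1 CPM, the count scaled to the size of the library, in 3 or more libraries.

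The 9 libraries, 1 per sample, were RNA-seq libraries of pancreatic neuroendocrine tumors and of islets from mice on a C57BL/6 background. The tumors M1 to M6 grew in INS-p25OE mice, which carry the Ins2-rtTA and tetOp-p25GFP transgenes. In these animals doxycycline in the drinking water, 1 mg/L by the labels (the sources differ on the unit of this dose) and from 3 to 4 weeks of age, switches on p25-GFP, an activating fragment of p35 that turns on the kinase Cdk5, under an insulin promoter. M1, M2 and M3 were functional tumors, and the labels mark them with a word spelled Inulin, which was read as insulin. M4, M5 and M6 were non-functional tumors. NI1, NI2 and NI3 were normal islets, labelled C57BL/6. The transgene acts in insulin-expressing cells only as far as that promoter does, and the ages at collection, the number of mice behind an islet sample and any doxycycline given to the islet donors are not stated in the labels. M2 came from a female mouse and the other samples from males.

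Cells copy their DNA once per division by splitting the work into a licensing step and a firing step. In G1 phase the origin recognition complex, Cdc6 and Cdt1 load the MCM2-7 ring onto DNA as an inactive helicase, and geminin blocks a further round of loading. At the start of S phase the Dbf4-dependent kinase Cdc7 and other factors add Cdc45 and the GINS complex to the ring, the helicase opens the double strand, and polymerases, clamp, clamp loader and single-strand binding protein follow. Most beta cells of an adult islet are outside the cell cycle, and many of these genes are known as targets of E2F transcription factors.

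One library has to be described before any comparison. Cdk5r1, the gene for p35 whose p25 fragment the transgene encodes, had 149 to 401 CPM in the 6 tumors, 18.4 and 12.5 CPM in NI2 and NI3, and 280 CPM in the library labelled NI1. That goes against the islet label, so it is called the library labelled NI1 here. Among the replication genes it stood closest to the tumor M6. Every one of the 52 members lay within 1.5-fold of its level in M6, with a median ratio of 0.889 and a range from 0.732 to 1.1. Against the other tumors, 22 (M3) to 47 (M4) members lay within 1.5-fold. The median ratio was 0.909 to M1 and 1.03 to M4. For the members, the median absolute difference in log2(CPM + 1) was 0.154 to M6 and 0.162 to M1. Against NI2 only 5 members lay within 1.5-fold, and against NI3 only 6. Over all tested genes, Pearson's r of log2(CPM + 1) was 0.988 between the library labelled NI1 and M6, 0.975 between NI2 and NI3, 0.932 and 0.920 between the library labelled NI1 and these islets, and at most 0.945 between any 2 tumors (15532 genes, which share their library and are not replicates). The counts of the library labelled NI1 and of M6 differed by more than sampling noise, with a chi-square of 44.4 per degree of freedom, against 139 between NI2 and NI3. Glucagon (Gcg), the hormone of alpha cells, had 787 CPM in the library labelled NI1 and 34.6 CPM in M6, against 2312 and 14256 CPM in NI2 and NI3. How the library came to hold such values was not tested. Each result below is given with and without it.

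**Figure D1:**
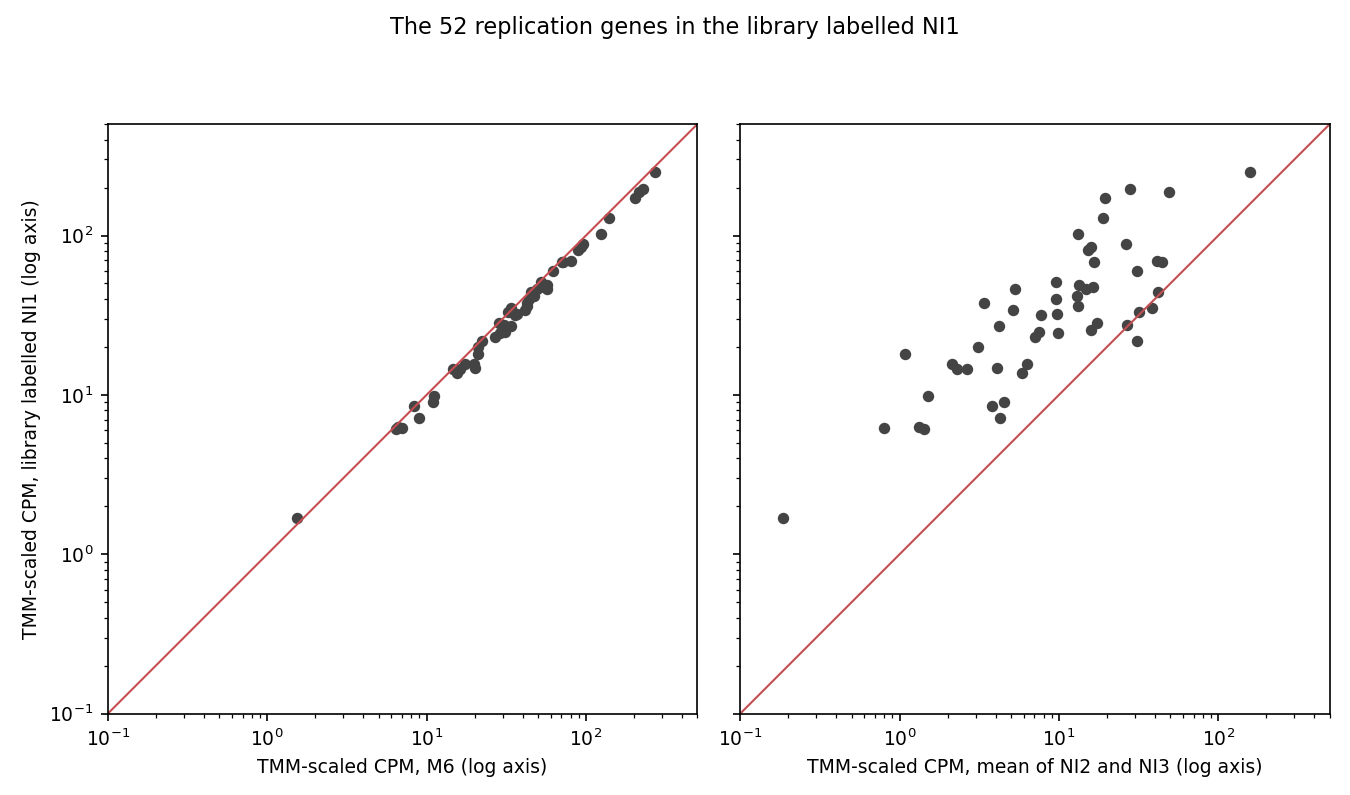
Each point is 1 of the 52 replication genes, with its TMM-scaled CPM in the library labelled NI1 on the vertical axis (log scale) and, on the horizontal axis (log scale), its CPM in the tumor M6 on the left and the mean of NI2 and NI3 on the right; the line marks equal levels. On the left all points lie close to the line, between 0.732 and 1.1 times the M6 level, while for 48 of the 52 genes the library lay above both NI2 and NI3, and the median ratio to the mean of the pair was 3.65.

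The libraries held between 36468280 and 63637175 counts, so that 3 counts stood for 0.042 to 0.119 CPM. CPM values are scaled by edgeR's TMM factors. Mitochondrial genes took 32.1% of the counts in M4 and 1.76% to 8.41% in the other libraries. The 10 beta cell markers were above 3 counts in every library, and Ins2 ran from 7313 to 88719 CPM in the tumors, with 88895 CPM in the library labelled NI1, 232991 CPM in NI2 and 248686 CPM in NI3. Markers of other cells moved as well. Without the library labelled NI1, 2 of 6 macrophage markers (Adgre1 and Cd68) were higher in tumors, and lower were 3 of 9 lymphoid markers (Cd79b and Ms4a1 among them), 1 of 7 tested acinar markers (Cela1), 1 of 5 tested markers of other islet cells (Gcg) and 1 of 10 beta cell markers (G6pc2). In that fit 819 of all 15350 genes tested were higher and 461 were lower. With 9 libraries 2 of 9 lymphoid markers were lower, Ms4a1 among them, where 40 of 15532 genes were lower, and no other marker passed. No ductal, fibroblast or endothelial marker passed in either fit. The 6 macrophage markers summed to 393 to 1069.9 CPM in tumors, 382 CPM in the library labelled NI1, and 276 and 171 CPM in NI2 and NI3. The 9 lymphoid markers summed to 7.1 to 99.6 CPM, 142 CPM, and 164 and 155 CPM in the same order, and the 8 acinar markers to 0.766 to 188 CPM, 281 CPM, and 340.01 and 5105 CPM. The acinar markers Cela3b and Amy2b were at 0 in M1, M2 and M3. The Amy2b entry, counted among the 8 acinar markers, is annotated as an unprocessed pseudogene. The part of these cells in the results on the replication genes was not tested, and in bulk RNA fewer cells that express a gene cannot be told apart from less of its RNA per cell.

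The first question is whether tumors carry more RNA of the replication genes than islets. With all 9 libraries under their labels, 50 of the 52 members had a log2 fold change above 0, with a median of 1.28, against a median of 0.03 over all 15532 genes. None passed edgeR's quasi-likelihood test at an adjusted p under 0.05 (0 of 52, against 0% of all genes called higher), where 35 had an unadjusted p under 0.05 (10.7% of all genes). DESeq2 called 22 members higher and none lower on the same 9 libraries, against 4.92% of all genes called higher, and gave 7 members no adjusted p, while limma called 0. For 16 members every tumor lay above every islet library, against 4.5% of all genes.

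Without the library labelled NI1, 42 of the 52 members were higher in tumors and 0 were lower, where 5.34% of the 15350 genes tested were higher. The median log2 fold change of the members was 2.23, against 0.05 over all genes, and their range was -0.48 to 4.0. For 47 members every tumor lay above both NI2 and NI3, against 16.6% of all genes. The 10 members that were not called were Mcm9, Orc2, Orc3, Orc4, Orc5, Gins3, Pold2, Pold3, Rfc1 and Rpa1. With M6 left out as well, 42 members were called, where 893 of 15164 genes tested were higher. The count rests on both remaining islet libraries. Fewer members, and fewer of all genes, passed when NI2 or NI3 was left out beside the library labelled NI1. In those fits the lone islet library is assumed to vary like the tumors. The median log2 fold change of the members was 2.27 without NI2 and 2.09 without NI3.

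**Figure D2:**
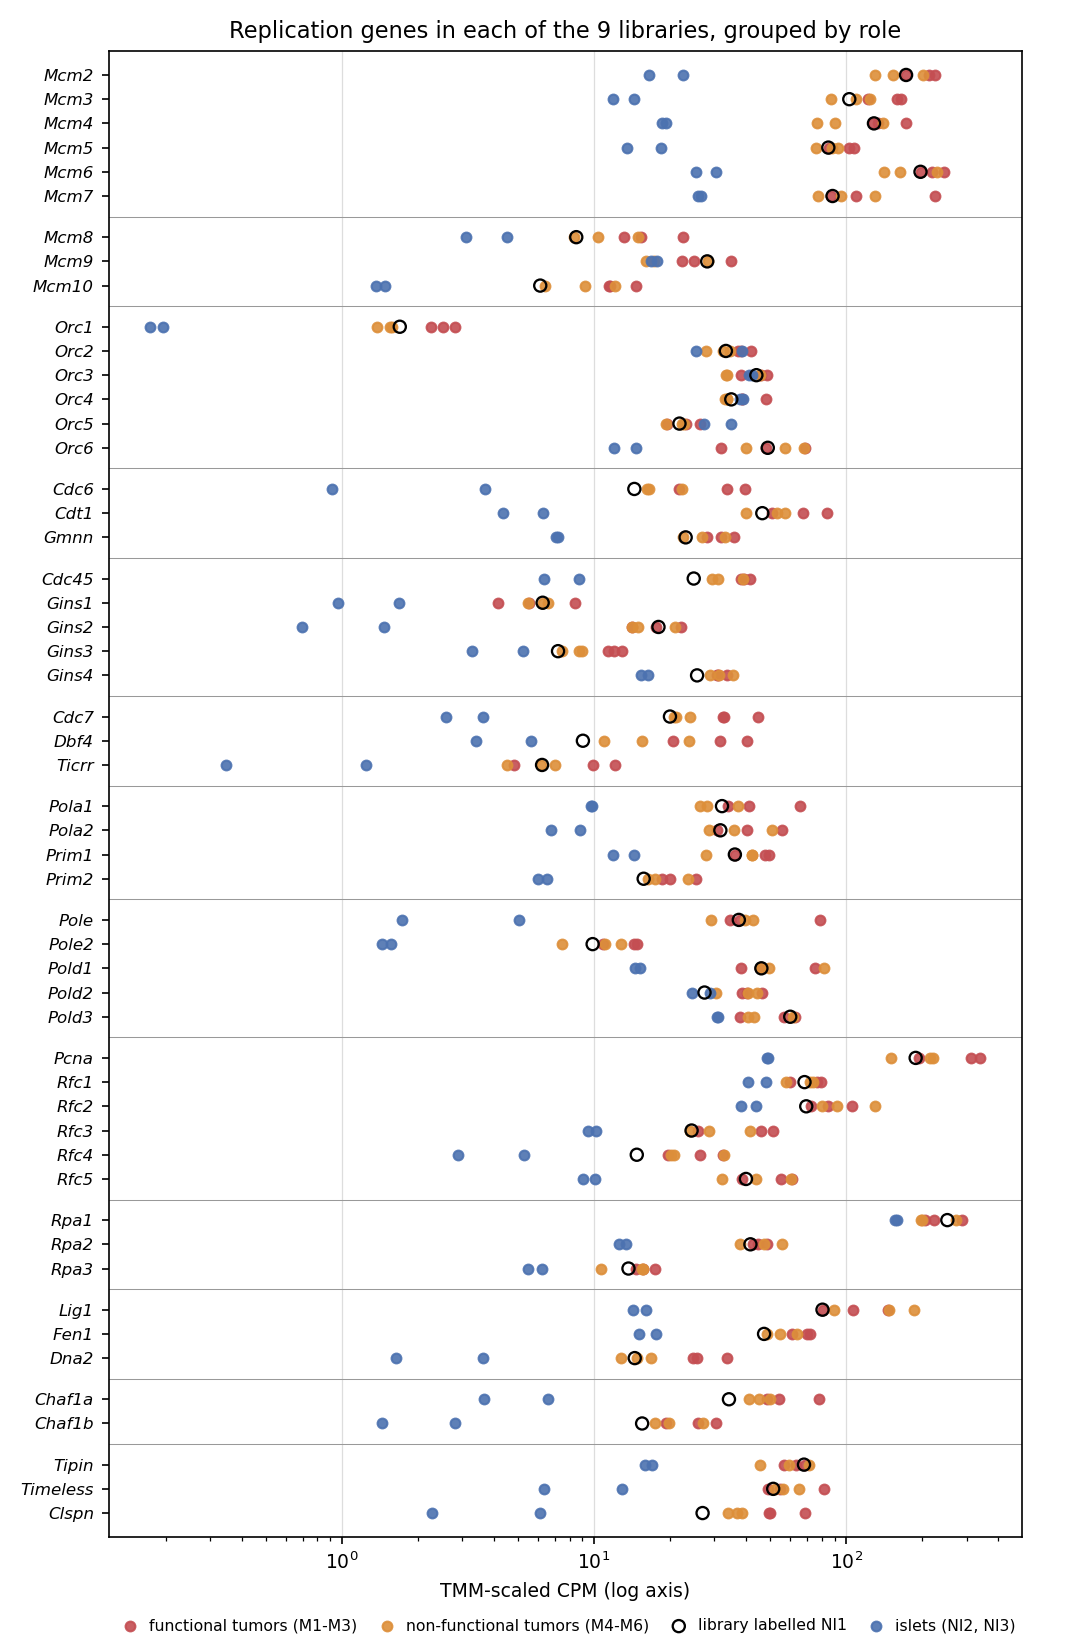
Each row is 1 replication gene and each point its TMM-scaled CPM (log axis) in 1 library, for functional tumors, non-functional tumors, the islets NI2 and NI3 and the library labelled NI1 (open circle); lines part the 13 roles. For 47 of the 52 genes all 6 tumors lie to the right of NI2 and NI3, while the open circle lies inside the range of the tumors for 36 genes and below it for 16.

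**Figure D3:**
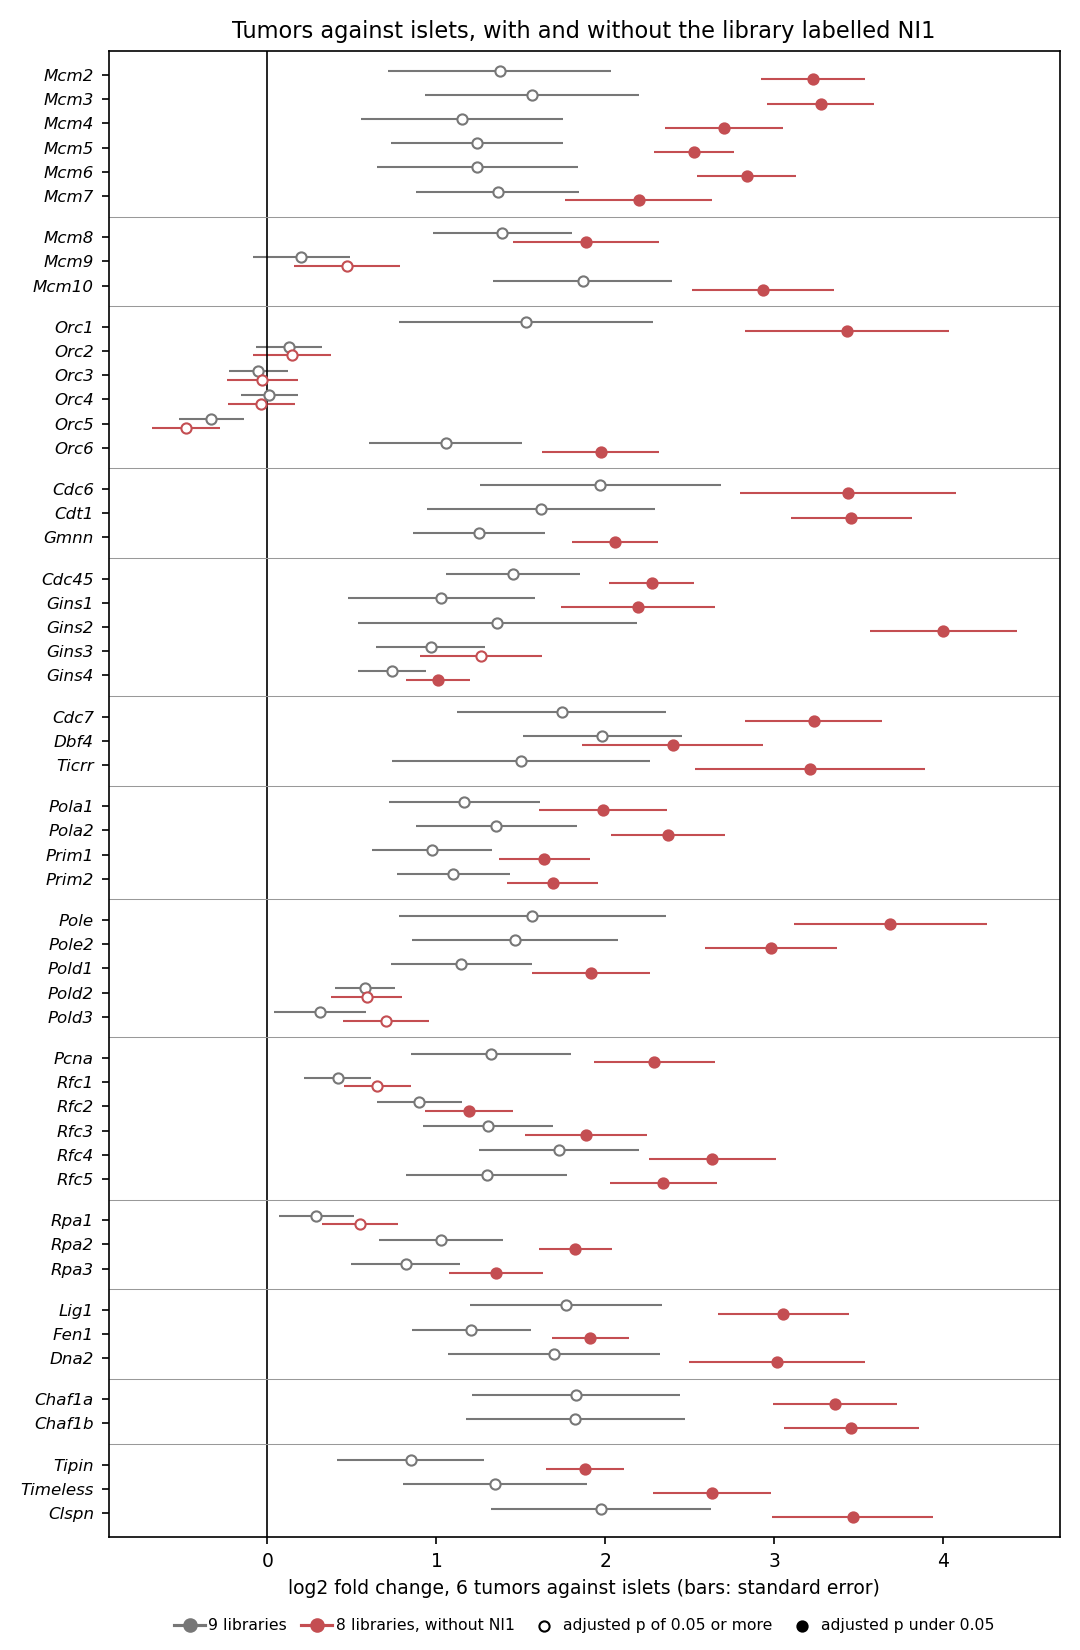
Points are log2 fold changes of 6 tumors against islets with bars of 1 standard error, for all 9 libraries (grey) and without the library labelled NI1 (red), and filled points passed an adjusted p under 0.05 in edgeR's test. No grey point is filled and 42 red points are, and the origin recognition genes Orc2, Orc3, Orc4 and Orc5 lie between -0.48 and 0.15 in both fits.

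Since many of these genes are known E2F targets, the RefSeq promoters of the members (build GRCm38.p6, 250 bases before to 50 after the start) were searched on both strands for 4 E2F words, TTTCCCGC, TTTGGCGC, TTTCGCGC and TTTGCCGC. A promoter was found for 43 members, and 17 of these (39.5%) held a word, against 2.6% of 27025 genes and 4.45% of the 11404 tested genes that had one. The CCAAT box, searched as CCAAT, was found in 60.5% of the 43 and in 42.4% of tested genes, and the cell cycle words TTTGAA and TTCGAA in 20.9% and 16.5%. The 5 stretches that follow, each the 170 bases just before a start, are shown because they hold an E2F word and at most 30 bases of annotated exon, and they include both called members and 1 that was not called. E2F words are in capitals, and where 2 overlap they form 1 longer run. For Cdc6 the RefSeq start lies downstream of the annotated gene start, so its stretch falls inside the gene as annotated.
Mcm6, chr1:128359706-128359875, minus strand: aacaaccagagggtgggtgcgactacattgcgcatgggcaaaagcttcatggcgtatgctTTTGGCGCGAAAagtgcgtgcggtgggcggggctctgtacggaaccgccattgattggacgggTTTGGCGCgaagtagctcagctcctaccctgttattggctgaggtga
Mcm5, chr8:75109339-75109508, plus strand: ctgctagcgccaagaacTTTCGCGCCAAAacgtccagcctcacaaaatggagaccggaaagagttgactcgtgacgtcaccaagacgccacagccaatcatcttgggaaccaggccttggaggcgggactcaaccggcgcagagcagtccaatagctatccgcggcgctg
Cdc6, chr11:98907981-98908150, plus strand: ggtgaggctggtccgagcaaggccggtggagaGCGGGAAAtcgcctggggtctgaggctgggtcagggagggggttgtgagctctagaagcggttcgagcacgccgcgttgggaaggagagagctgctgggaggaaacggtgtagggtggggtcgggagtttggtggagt
Pola1, chrX:93632156-93632325, minus strand: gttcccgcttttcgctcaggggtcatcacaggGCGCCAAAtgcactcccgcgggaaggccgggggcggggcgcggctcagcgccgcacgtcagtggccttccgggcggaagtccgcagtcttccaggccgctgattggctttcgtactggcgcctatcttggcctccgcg
Orc3, chr4:34614943-34615112, minus strand: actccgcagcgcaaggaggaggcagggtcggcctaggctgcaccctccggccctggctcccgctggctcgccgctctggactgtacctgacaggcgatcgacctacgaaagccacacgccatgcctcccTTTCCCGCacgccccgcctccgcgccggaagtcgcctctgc
Mcm6, Mcm5, Cdc6 and Pola1 were among the 42 members called higher, and Orc3, which holds TTTCCCGC, was not. Of the 17 members with a word, 14 were called without the library labelled NI1, with a median log2 fold change of 2.52, and Orc3, Gins3 and Pold3 were not. Of the 26 members with a promoter but no word, 19 were called, with a median of 2.28. The 9 members for which no promoter was found were all called, with a median of 2.06. A word in these letters is a description of the sequence and not a measured binding site.

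The 6 subunits of the MCM2-7 ring, the motor of the replication fork, were all higher in tumors without the library labelled NI1 (6 of 6), with a median log2 fold change of 2.77. With 9 libraries none passed, and the median was 1.3. Mcm2 (ENSMUSG00000002870, chromosome 6, 88883474 to 88898780 of GRCm38) had 173, 213 and 225 CPM in M1, M2 and M3, 130.2, 154 and 202 CPM in M4, M5 and M6, 173 CPM in the library labelled NI1, and 22.5 and 16.5 CPM in NI2 and NI3. Mcm3 (ENSMUSG00000041859, chromosome 1, 20802968 to 20820312) had 122, 159.6 and 165 CPM in M1, M2 and M3, 87.2, 109 and 124 CPM in M4, M5 and M6, 103 CPM in the library labelled NI1, and 14.4 and 11.9 CPM in NI2 and NI3. Both genes were about as high in the library labelled NI1 as in the tumors, and NI2 and NI3 lay well below all of them. For Mcm2 the log2 fold change was 1.37 (adjusted p = 0.278, standard error 0.66) with 9 libraries and 3.23 (adjusted p = 0.00146, standard error 0.31) without the library labelled NI1. For Mcm3 it was 1.57 (adjusted p = 0.219, standard error 0.63) with 9 libraries and 3.27 (adjusted p = 0.00149, standard error 0.32) without the library labelled NI1.

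Mcm4 (ENSMUSG00000022673, chromosome 16, 15623897 to 15637400) had 133, 128 and 173 CPM in the functional tumors, 90.2, 76.7 and 139.8 CPM in the non-functional tumors, 129 CPM in the library labelled NI1, and 19.3 and 18.6 CPM in NI2 and NI3. Mcm5 (ENSMUSG00000005410, chromosome 8, 75109569 to 75128439) had 85.5, 103 and 108 CPM in the functional tumors, 75.6, 87.9 and 92.7 CPM in the non-functional tumors, 85 CPM in the library labelled NI1, and 18.4 and 13.6 CPM in NI2 and NI3. Mcm6 (ENSMUSG00000026355, chromosome 1, 128331590 to 128359664) had the highest mean level of the ring in the tumors for its summed exon length. It had 198, 219 and 244 CPM in the functional tumors and 141, 164 and 229 CPM in the non-functional tumors. The library labelled NI1 had 197 CPM, and NI2 and NI3 had 30.4 and 25.3 CPM. In all 3 the 6 tumors and the library labelled NI1 formed 1 range and NI2 and NI3 another. For Mcm4 the log2 fold change was 1.15 (adjusted p = 0.312, standard error 0.6) with 9 libraries and 2.7 (adjusted p = 0.00421, standard error 0.35) without the library labelled NI1. Mcm5, which had the smallest adjusted p of all members in the fit without the library labelled NI1, had log2 fold changes of 1.24 (adjusted p = 0.224, standard error 0.51) with 9 libraries and 2.52 (adjusted p = 0.0014, standard error 0.24) without the library labelled NI1. Mcm6 had log2 fold changes of 1.24 (adjusted p = 0.278, standard error 0.59) with 9 libraries and 2.84 (adjusted p = 0.00216, standard error 0.29) without the library labelled NI1.

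Mcm7 (ENSMUSG00000029730, chromosome 5, 138164583 to 138172422) had 87.1, 109 and 225 CPM in M1, M2 and M3, 77, 130.2 and 95.6 CPM in M4, M5 and M6, 88.3 CPM in the library labelled NI1, and 25.9 and 26.6 CPM in NI2 and NI3. M3 stood far above the other 5 tumors, and NI2 and NI3 lay below all 6. For Mcm7 the log2 fold change was 1.36 (adjusted p = 0.183, standard error 0.48) with 9 libraries and 2.2 (adjusted p = 0.0198, standard error 0.43) without the library labelled NI1, the smallest of the ring without that library. The exons of Mcm7 overlap the opposite-strand gene Ap4m1 over 7.3% of their length, and the library kit does not mark the strand.

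Other MCM proteins serve outside the ring. Mcm10, which helps to start the helicase, had 11.6, 11.4 and 14.7 CPM in M1, M2 and M3, 9.23, 12.2 and 6.4 CPM in M4, M5 and M6, 6.12 CPM in the library labelled NI1, and 1.37 and 1.49 CPM in NI2 and NI3, and Mcm8, which acts with Mcm9 in recombination repair, had 13.1, 15.4 and 22.4 CPM in M1, M2 and M3, 10.3, 15 and 8.32 CPM in M4, M5 and M6, 8.5 CPM in the library labelled NI1, and 4.51 and 3.1 CPM in NI2 and NI3. For Mcm10 every tumor lay above every islet library, while for Mcm8 M6 lay just below the library labelled NI1. Both were higher without that library, with log2 fold changes of 2.93 (adjusted p = 0.00648, standard error 0.42) and 1.89 (adjusted p = 0.0318, standard error 0.43). Mcm9 had 16 to 35 CPM in tumors, inside which NI2 and NI3 fell at 16.8 and 17.8 CPM, and the difference on the log2 scale was 0.47 (adjusted p = 0.37, standard error 0.31) without the library labelled NI1. Mcm9 shares 19.2% of its exon bases with Asf1a on the other strand.

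The origin recognition complex marks the sites where the ring is loaded, and its 6 genes did not move together. Without the library labelled NI1, Orc1 and Orc6 were higher and Orc2, Orc3, Orc4 and Orc5 were not called. Orc1 (ENSMUSG00000028587, chromosome 4, 108579423 to 108614833), the ATPase subunit that is known to vary with the cell cycle, had 2.26, 2.8 and 2.51 CPM in M1, M2 and M3, 1.59, 1.38 and 1.55 CPM in M4, M5 and M6, 1.7 CPM in the library labelled NI1, and 0.195 and 0.173 CPM in NI2 and NI3. The functional tumors were the highest, the non-functional tumors and the library labelled NI1 lay together below them, and NI2 and NI3 were lower by far. For Orc1 the log2 fold change was 1.53 (adjusted p = 0.286, standard error 0.75) with 9 libraries and 3.43 (adjusted p = 0.0133, standard error 0.6) without the library labelled NI1. Orc1 was below 1 CPM in NI2 and NI3, so without that library it passed the filter on low counts through the tumors only. Orc6 (ENSMUSG00000031697, chromosome 8, 85299632 to 85308278), the smallest subunit, had 48.1, 68.5 and 31.9 CPM in the functional tumors, 39.99, 67.9 and 57.3 CPM in the non-functional tumors, 48.9 CPM in the library labelled NI1, and 12 and 14.6 CPM in NI2 and NI3. The tumors and the library labelled NI1 again lay above NI2 and NI3, with M3 lowest among the tumors. For Orc6 the log2 fold change was 1.05 (adjusted p = 0.238, standard error 0.45) with 9 libraries and 1.97 (adjusted p = 0.0132, standard error 0.35) without the library labelled NI1. Orc6 shares 6.9% of its exon bases with Vps35 on the other strand.

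Orc3, Orc4 and Orc5, subunits of the ring-shaped core of the complex, had the smallest log2 fold changes of all members with 9 libraries. Orc3 had 46.1, 48.6 and 38.2 CPM in M1, M2 and M3, 33.3, 33.7 and 45.5 CPM in M4, M5 and M6, 44 CPM in the library labelled NI1, and 42.3 and 41.1 CPM in NI2 and NI3. Orc4 had 38.5, 48.2 and 38.5 CPM in M1, M2 and M3, 33.8, 32.9 and 33.7 CPM in M4, M5 and M6, 35 CPM in the library labelled NI1, and 37.9 and 39.1 CPM in NI2 and NI3. Orc5 had 26.2, 23.2 and 19.5 CPM in the functional tumors, 22.7, 19.3 and 22.3 CPM in the non-functional tumors, 21.8 CPM in the library labelled NI1, and 27.3 and 34.8 CPM in NI2 and NI3. For Orc3 and Orc4 the islets fell inside the range of the tumors, and for Orc5 NI3 lay above every tumor and NI2 above all 6 by a smaller margin. For Orc3 the log2 fold change was -0.06 (adjusted p = 0.891, standard error 0.18) with 9 libraries and -0.03 (adjusted p = 0.943, standard error 0.21) without the library labelled NI1. For Orc4 it was 0.01 (adjusted p = 0.98, standard error 0.17) with 9 libraries and -0.04 (adjusted p = 0.93, standard error 0.2) without the library labelled NI1. Orc5 had log2 fold changes of -0.33 (adjusted p = 0.358, standard error 0.19) with 9 libraries and -0.48 (adjusted p = 0.162, standard error 0.2) without the library labelled NI1. Orc2 had 27.7 to 42 CPM in tumors and 25.3 and 38.5 CPM in NI2 and NI3, with 0.15 (adjusted p = 0.73, standard error 0.23) without the library labelled NI1, and 29.8% of its exon bases overlap Nif3l1 on the other strand.

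Cdc6 and Cdt1 load the ring, and geminin (Gmnn) binds Cdt1 and holds it back. All 3 were higher without the library labelled NI1. Cdc6 (ENSMUSG00000017499, chromosome 11, 98907801 to 98923940) had 39.5, 21.6 and 33.5 CPM in M1, M2 and M3, 22.3, 16.6 and 16.2 CPM in M4, M5 and M6, 14.5 CPM in the library labelled NI1, and 3.68 and 0.917 CPM in NI2 and NI3. Every tumor lay above every islet library, with the library labelled NI1 just below M6 and NI3 lowest. For Cdc6 the log2 fold change was 1.97 (adjusted p = 0.188, standard error 0.71) with 9 libraries and 3.43 (adjusted p = 0.0159, standard error 0.64) without the library labelled NI1. Cdt1 (ENSMUSG00000006585, chromosome 8, 122568015 to 122573554) had 50.7, 67.2 and 83.7 CPM in the functional tumors, 39.9, 53 and 57 CPM in the non-functional tumors, 46.5 CPM in the library labelled NI1, and 6.29 and 4.36 CPM in NI2 and NI3. Gmnn (ENSMUSG00000006715, chromosome 13, 24751845 to 24761923) had 27.9, 32 and 35.8 CPM in the functional tumors, 22.4, 32.9 and 26.9 CPM in the non-functional tumors, 23.1 CPM in the library labelled NI1, and 7.17 and 7.06 CPM in NI2 and NI3. In both the library labelled NI1 lay above M4, the lowest tumor, and NI2 and NI3 lay below all tumors. For Cdt1 the log2 fold change was 1.62 (adjusted p = 0.229, standard error 0.67) with 9 libraries and 3.46 (adjusted p = 0.00219, standard error 0.36) without the library labelled NI1. Gmnn, the inhibitor, had log2 fold changes of 1.25 (adjusted p = 0.163, standard error 0.39) with 9 libraries and 2.06 (adjusted p = 0.00353, standard error 0.25) without the library labelled NI1.

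Cdc45 and the GINS complex turn the loaded ring into the active helicase. Of these 5 genes 4 passed as higher without the library labelled NI1, and Gins3 was not called (adjusted p = 0.0606), although its lowest tumor lay above its highest islet library. Cdc45 (ENSMUSG00000000028, chromosome 16, 18780447 to 18811987) had 38.2, 39.2 and 41.6 CPM in M1, M2 and M3, 29.3, 38.9 and 31 CPM in M4, M5 and M6, 24.9 CPM in the library labelled NI1, and 8.69 and 6.34 CPM in NI2 and NI3. All 6 tumors lay above the library labelled NI1, which lay above NI2 and NI3. For Cdc45 the log2 fold change was 1.45 (adjusted p = 0.152, standard error 0.4) with 9 libraries and 2.27 (adjusted p = 0.00268, standard error 0.25) without the library labelled NI1. Gins1 (ENSMUSG00000027454, chromosome 2, 150905400 to 150931280) had 5.5, 4.18 and 8.43 CPM in the functional tumors, 5.47, 6.26 and 6.58 CPM in the non-functional tumors, 6.26 CPM in the library labelled NI1, and 1.68 and 0.967 CPM in NI2 and NI3. The library labelled NI1 fell inside the range of the tumors. For Gins1 the log2 fold change was 1.03 (adjusted p = 0.326, standard error 0.55) with 9 libraries and 2.19 (adjusted p = 0.0231, standard error 0.46) without the library labelled NI1. Gins2 had the largest difference of all members without that library, 4.0 (adjusted p = 0.00252, standard error 0.43), but 67.3% of its exon bases lie in exons of Gse1 on the other strand, so its counts are uncertain. Gins4 had the smallest difference of the called members, 1.01 (adjusted p = 0.016, standard error 0.19).

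The kinase Cdc7, its activator Dbf4 and Ticrr, known as treslin, act when origins fire, and all 3 were higher without the library labelled NI1. Cdc7 (ENSMUSG00000029283, chromosome 5, 106964322 to 106984432) had 32.4, 32.9 and 44.7 CPM in M1, M2 and M3, 20.7, 24 and 21 CPM in M4, M5 and M6, 20.004 CPM in the library labelled NI1, and 3.64 and 2.58 CPM in NI2 and NI3. The 3 functional tumors were the highest, and all 6 tumors lay above the islets as labelled. Dbf4 (ENSMUSG00000002297, chromosome 5, 8396973 to 8422716), with the largest log2 fold change of all members with 9 libraries, had 20.6, 31.7 and 40.2 CPM in M1, M2 and M3, 15.5, 23.8 and 10.9 CPM in M4, M5 and M6, 9.03 CPM in the library labelled NI1, and 5.61 and 3.4 CPM in NI2 and NI3. All 6 tumors again lay above every islet library, M6 by the smallest margin. For Cdc7 the log2 fold change was 1.74 (adjusted p = 0.184, standard error 0.62) with 9 libraries and 3.23 (adjusted p = 0.00361, standard error 0.41) without the library labelled NI1. For Dbf4 it was 1.98 (adjusted p = 0.139, standard error 0.47) with 9 libraries and 2.4 (adjusted p = 0.0288, standard error 0.54) without the library labelled NI1. Ticrr (ENSMUSG00000046591, chromosome 7, 79660196 to 79698148) had 9.87, 4.8 and 12.1 CPM in the functional tumors, 6.14, 4.52 and 7.02 CPM in the non-functional tumors, 6.22 CPM in the library labelled NI1, and 1.24 and 0.347 CPM in NI2 and NI3. M2, M4 and M5 were below the library labelled NI1, M4 by little, and every tumor lay above NI2 and NI3. For Ticrr the log2 fold change was 1.5 (adjusted p = 0.301, standard error 0.76) with 9 libraries and 3.21 (adjusted p = 0.0245, standard error 0.68) without the library labelled NI1.

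DNA polymerase alpha and primase lay down the primers from which each strand is extended. Its 4 genes, Pola1, Pola2, Prim1 and Prim2, were higher without the library labelled NI1, with log2 fold changes between 1.64 and 2.37. Pola1 (ENSMUSG00000006678, chromosome X, 93304767 to 93632155), the catalytic subunit, had 41.2, 34 and 65.5 CPM in M1, M2 and M3, 27.9, 26.4 and 37.1 CPM in M4, M5 and M6, 32.2 CPM in the library labelled NI1, and 9.83 and 9.69 CPM in NI2 and NI3. Prim1 (ENSMUSG00000025395, chromosome 10, 128015168 to 128030037), the primase, had 36.2, 47.7 and 49.3 CPM in M1, M2 and M3, 27.7, 42.2 and 42.5 CPM in M4, M5 and M6, 36.2 CPM in the library labelled NI1, and 14.3 and 11.9 CPM in NI2 and NI3. M3 was the highest tumor for both, the library labelled NI1 fell among the tumors, and NI2 and NI3 lay below. For Pola1 the log2 fold change was 1.17 (adjusted p = 0.203, standard error 0.45) with 9 libraries and 1.98 (adjusted p = 0.0175, standard error 0.38) without the library labelled NI1. For Prim1 it was 0.98 (adjusted p = 0.189, standard error 0.35) with 9 libraries and 1.64 (adjusted p = 0.0106, standard error 0.27) without the library labelled NI1.

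Polymerase epsilon extends the leading strand and polymerase delta the lagging strand. Pole, Pole2 and Pold1 passed as higher without the library labelled NI1, and the delta subunits Pold2 and Pold3 were not called. Pole (ENSMUSG00000007080, chromosome 5, 110286306 to 110337474) had 38.1, 34.6 and 78.9 CPM in M1, M2 and M3, 29, 39.5 and 42.7 CPM in M4, M5 and M6, 37.5 CPM in the library labelled NI1, and 5.05 and 1.73 CPM in NI2 and NI3. M3 stood apart from the other tumors, and NI3 was lowest. For Pole the log2 fold change was 1.57 (adjusted p = 0.299, standard error 0.79) with 9 libraries and 3.69 (adjusted p = 0.00843, standard error 0.57) without the library labelled NI1. Pold1 (ENSMUSG00000038644, chromosome 7, 44532746 to 44548849), the catalytic subunit of delta, had 45.4, 38.2 and 75.4 CPM in the functional tumors, 45.9, 81.9 and 49.5 CPM in the non-functional tumors, 46.1 CPM in the library labelled NI1, and 15.2 and 14.5 CPM in NI2 and NI3. M3 and M5 were the highest, and the library labelled NI1 lay above M1, M2 and M4. For Pold1 the log2 fold change was 1.15 (adjusted p = 0.19, standard error 0.42) with 9 libraries and 1.91 (adjusted p = 0.0151, standard error 0.35) without the library labelled NI1. Pole2 had 2.98 (adjusted p = 0.00448, standard error 0.39) without that library. Pold2 and Pold3 had 0.59 (adjusted p = 0.115, standard error 0.21) and 0.7 (adjusted p = 0.118, standard error 0.26) without that library, and for both genes all 6 tumors lay above NI2 and NI3.

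The sliding clamp Pcna keeps polymerases on DNA, and the loader of 5 subunits, Rfc1 to Rfc5, opens and closes it. Of the 6 genes 5 were higher without the library labelled NI1. Pcna (ENSMUSG00000027342, chromosome 2, 132249162 to 132253314) had 195, 340.5 and 311 CPM in M1, M2 and M3, 149.97, 222 and 215 CPM in M4, M5 and M6, 189 CPM in the library labelled NI1, and 48.5 and 49 CPM in NI2 and NI3. M2 and M3 were the highest, and the library labelled NI1 lay between M4 and M1. For Pcna the log2 fold change was 1.32 (adjusted p = 0.185, standard error 0.47) with 9 libraries and 2.29 (adjusted p = 0.00852, standard error 0.36) without the library labelled NI1. Rfc1 (ENSMUSG00000029191, chromosome 5, 65261850 to 65335670), the large subunit of the loader, had 76.7, 60.1 and 79.8 CPM in the functional tumors, 73.8, 57.6 and 71.8 CPM in the non-functional tumors, 68.3 CPM in the library labelled NI1, and 40.9 and 48.1 CPM in NI2 and NI3. All tumors were above NI2 and NI3, by a small margin next to Pcna. For Rfc1 the log2 fold change was 0.42 (adjusted p = 0.276, standard error 0.2) with 9 libraries and 0.65 (adjusted p = 0.0752, standard error 0.2) without the library labelled NI1. Rfc2, Rfc3, Rfc4 and Rfc5, the small subunits, had log2 fold changes of 1.19, 1.88, 2.63 and 2.34 without that library, with adjusted p from 0.00537 to 0.0255 over the 5 called genes. Of their exon bases, Rfc2 shares 15.1% with Lat2, Rfc4 12.7% with Eif4a2 and Rfc5 10.7% with Wsb2, all on the other strand. Eif4a2 held a median of 19391 counts, so part of the counts of Rfc4 is uncertain. Processed copies of Pcna held at most 25 counts in a library.

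Replication protein A coats single-stranded DNA as a complex of 3 subunits. Rpa2 and Rpa3 passed as higher without the library labelled NI1, and the largest subunit, Rpa1, was not called. Rpa1 (ENSMUSG00000000751, chromosome 11, 75298166 to 75348324) had 289, 206 and 222 CPM in M1, M2 and M3, 198, 199.7 and 272 CPM in M4, M5 and M6, 252 CPM in the library labelled NI1, and 159 and 156 CPM in NI2 and NI3. All 6 tumors lay above NI2 and NI3, and the library labelled NI1 lay above 4 of them. For Rpa1 the log2 fold change was 0.29 (adjusted p = 0.487, standard error 0.22) with 9 libraries and 0.55 (adjusted p = 0.16, standard error 0.23) without the library labelled NI1. Rpa2 and Rpa3 had 1.82 (adjusted p = 0.00326, standard error 0.22) and 1.35 (adjusted p = 0.023, standard error 0.28) without that library.

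Lagging-strand fragments are trimmed by Fen1 and Dna2 and joined by DNA ligase 1 (Lig1), and all 3 were higher without the library labelled NI1. Lig1 (ENSMUSG00000056394, chromosome 7, 13277283 to 13311433) had 80.8, 106 and 147 CPM in M1, M2 and M3, 147, 185 and 89.1 CPM in M4, M5 and M6, 80.5 CPM in the library labelled NI1, and 16 and 14.3 CPM in NI2 and NI3. M3, M4 and M5 were the highest, and M1, the lowest tumor, was nearly level with the library labelled NI1. For Lig1 the log2 fold change was 1.77 (adjusted p = 0.166, standard error 0.57) with 9 libraries and 3.05 (adjusted p = 0.0038, standard error 0.39) without the library labelled NI1. Fen1 (ENSMUSG00000024742, chromosome 19, 10199132 to 10204169) had 60.8, 69.9 and 71.7 CPM in the functional tumors, 48.6, 63.9 and 54.6 CPM in the non-functional tumors, 47.2 CPM in the library labelled NI1, and 17.7 and 15.1 CPM in NI2 and NI3. All 6 tumors lay above the islets as labelled, M4 by the smallest margin. For Fen1 the log2 fold change was 1.21 (adjusted p = 0.156, standard error 0.35) with 9 libraries and 1.91 (adjusted p = 0.00326, standard error 0.23) without the library labelled NI1. Fen1 shares 78.8% of its exon bases with the opposite-strand transcript Gm10143, which held a median of 12 counts. Dna2 was lowest in NI3 and highest in M3, at 1.64 and 33.6 CPM, with 3.02 (adjusted p = 0.0125, standard error 0.52).

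Chaf1a and Chaf1b, subunits of the factor that places histones on new DNA, passed as higher without the library labelled NI1, and for both the lowest tumor lay above the highest islet library. Chaf1a (ENSMUSG00000002835, chromosome 17, 56040439 to 56072289) had 48.3, 54.2 and 77.9 CPM in M1, M2 and M3, 44.9, 49.9 and 41.3 CPM in M4, M5 and M6, 34.3 CPM in the library labelled NI1, and 6.59 and 3.67 CPM in NI2 and NI3. M3 stood above the other tumors, and the library labelled NI1 lay between M6 and NI2. For Chaf1a the log2 fold change was 1.83 (adjusted p = 0.171, standard error 0.62) with 9 libraries and 3.36 (adjusted p = 0.00252, standard error 0.37) without the library labelled NI1. Of its exon bases 52.5% overlap Ubxn6 on the other strand, so part of its counts is uncertain. Chaf1b had 3.46 (adjusted p = 0.00309, standard error 0.4) without that library.

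Timeless and Tipin steady the fork as a pair, and claspin (Clspn) passes the stalled-fork signal to the checkpoint kinase Chk1. All 3 were higher without the library labelled NI1. Timeless (ENSMUSG00000039994, chromosome 10, 128232065 to 128252941) had 54.8, 49.2 and 81.6 CPM in M1, M2 and M3, 56.1, 65.1 and 52.3 CPM in M4, M5 and M6, 51.4 CPM in the library labelled NI1, and 12.9 and 6.32 CPM in NI2 and NI3. Clspn (ENSMUSG00000042489, chromosome 4, 126556935 to 126593903), with the second largest log2 fold change with 9 libraries, had 49.5, 50.02 and 68.9 CPM in M1, M2 and M3, 37, 38.6 and 33.9 CPM in M4, M5 and M6, 26.9 CPM in the library labelled NI1, and 6.1 and 2.28 CPM in NI2 and NI3. For Clspn all 6 tumors lay above the library labelled NI1, and the functional tumors lay above the non-functional ones, while for Timeless M2 lay just below that library. For Timeless the log2 fold change was 1.34 (adjusted p = 0.22, standard error 0.54) with 9 libraries and 2.63 (adjusted p = 0.00468, standard error 0.35) without the library labelled NI1. For Clspn it was 1.97 (adjusted p = 0.168, standard error 0.65) with 9 libraries and 3.46 (adjusted p = 0.00552, standard error 0.48) without the library labelled NI1. Tipin had 1.88 (adjusted p = 0.00353, standard error 0.23) without that library.

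Levels were also compared between genes, as CPM per kilobase of summed exons, a rough scale for genes of different length. The length counts every annotated exon base of a gene once and is not that of the transcript expressed. The order of genes on this scale therefore depends on the annotation, with 6956 bases for Mcm2 and 3589 for Mcm4. In the 6 tumors Pcna was the highest member at 99.5 ± 30.2 CPM per kilobase (SD, n = 6). Mcm6 (42.7 ± 8.49), Rpa1 (41.4 ± 7.04), Mcm4 (34.4 ± 9.74) and Mcm3 (34 ± 7.92) followed, and neighbours among these 4 differed by less than their SD. The other subunits of the ring had 27.3 ± 12.3 for Mcm7, 26.3 ± 5.3 for Mcm2 and 23 ± 2.94 for Mcm5. Orc1 was the lowest member at 0.579 ± 0.169 CPM per kilobase, next to Ticrr at 0.74 ± 0.299 and Mcm10 at 1.42 ± 0.367. Within the origin recognition complex Orc6 had 21.2 ± 6.06 and Orc2 9.17 ± 1.29 CPM per kilobase in tumors. In NI2 and NI3 the order was another, with Rpa1 highest (28.6 and 28 CPM per kilobase), then Pcna (20.2 and 20.4) and Pold2 (13 and 15.3), while the ring subunits lay between 2.37 and 6.51. Orc3, at 6.95 and 6.75 CPM per kilobase in NI2 and NI3, was above the 6 ring subunits there and, at 6.72 ± 1.1, below all 6 in the tumors.

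The tumors differed among themselves. M3 was the highest tumor for 33 of the 52 members, among them all 6 subunits of the ring, and M4 was the lowest for 25. The median level of the members was 43.8 CPM in M3, 39.8 in M2, 39.2 in M5, 39.1 in M1, 34.8 in M6 and 30.7 in M4, against 32.8 CPM in the library labelled NI1, 10.9 in NI2 and 10.1 in NI3. M4 is the library with the largest mitochondrial share, whose part in its low values was not tested, and with the mitochondrial genes removed before scaling the count without the library labelled NI1 was 42 again. The origin recognition genes did not share the order, since M2 was the highest tumor for 4 of the 6 and M5 the lowest for 4.

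Whether the hormone state of a tumor goes with these genes was asked by setting M1, M2 and M3 against M4, M5 and M6. No member passed edgeR's test with 9 libraries (0 of 52, and 0 at an unadjusted p under 0.05). DESeq2 called 0 as well, with 0 at an unadjusted p under 0.05 and 7 members given no adjusted p. The log2 fold change of functional against non-functional tumors was above 0 for 45 members, with a median of 0.27 and a range from -0.33 to 0.92. The largest values were those of Dna2, 0.92 (adjusted p = 0.637, standard error 0.64), and Dbf4, 0.88 (adjusted p = 0.51, standard error 0.43). The lowest was that of Lig1, -0.33 (adjusted p = 0.881, standard error 0.62). Without the library labelled NI1, which is in neither group but enters the shared spread, 0 members passed. At an unadjusted p under 0.05, 4 were higher and 0 lower, where 765 of 15350 tested genes were higher. Dna2 then had 0.91 (adjusted p = 0.454, standard error 0.32), Dbf4 0.88 (adjusted p = 0.473, standard error 0.38) and Lig1 -0.34 (adjusted p = 0.709, standard error 0.31). All 3 functional tumors lay above all 3 non-functional tumors for 7 members (Orc1, Orc2, Orc4, Gins3, Cdc7, Dna2 and Clspn), against 8.77% of all genes, and for 0 members below them. Dna2 had 25.6, 24.6 and 33.6 CPM in the functional and 16.8, 12.8 and 14.7 CPM in the non-functional tumors.

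**Figure D4:**
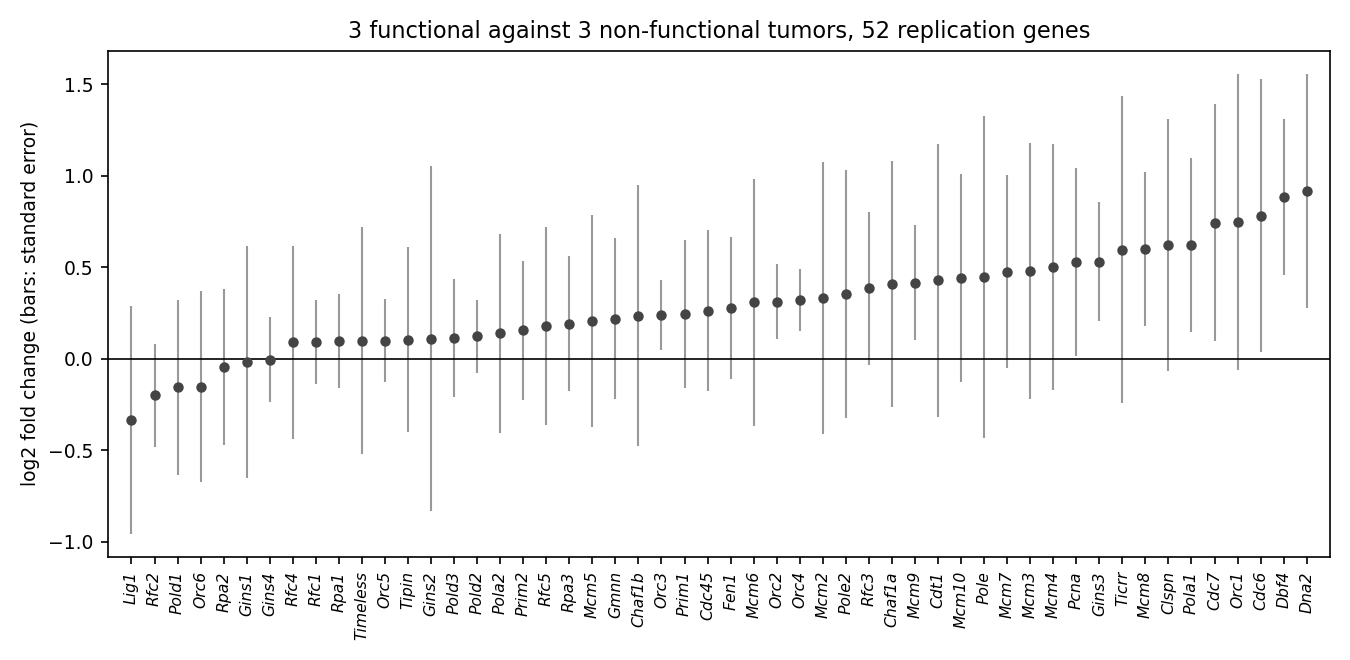
Points are log2 fold changes of the 3 functional against the 3 non-functional tumors for each of the 52 replication genes, sorted by size. Bars are 1 standard error from the 3-group fit of all 9 libraries. The points run from -0.33 for Lig1 to 0.92 for Dna2, and none passed an adjusted p under 0.05.

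Each tumor type was also set against the islets, in a fit of 3 groups whose comparisons share the islet libraries. For functional tumors 0 members were called with 9 libraries, 32 had an unadjusted p under 0.05 (11.3% of all genes), and DESeq2 called 14 (4.99% of all genes), with 7 members given no adjusted p. With the library labelled NI1 left out, 43 were higher (5.16% of all genes). For non-functional tumors 0 were called with 9 libraries, 19 had an unadjusted p under 0.05 (8.27% of all genes), and DESeq2 called 0 (1.56% of all genes), with 27 at an unadjusted p under 0.05 (10.5% of all genes) and 7 given no adjusted p. Again with that library left out, 38 were higher (2.88% of all genes). Mcm2 then had 3.38 (adjusted p = 0.00248, standard error 0.3) in functional and 3.06 (adjusted p = 0.00531, standard error 0.3) in non-functional tumors. Cdc6 had 3.77 (adjusted p = 0.0133, standard error 0.62) and 2.99 (adjusted p = 0.0347, standard error 0.59), and Pcna had 2.53 (adjusted p = 0.00627, standard error 0.33) and 2.0 (adjusted p = 0.0203, standard error 0.32). The difference between both sides is the comparison of functional with non-functional tumors given above, in which no member passed, with or without that library.

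A list of 24 other replication genes was read beside the members, of which 23 could be matched. With 9 libraries 0 were called, and 12 had an unadjusted p under 0.05 (10.7% of all genes). DESeq2 called 6 (4.92% of all genes) and gave 2 no adjusted p. The median log2 fold change was 0.93. Without the library labelled NI1, 13 of the 23 were higher (5.34% of all genes) and 0 lower, with a median log2 fold change of 1.48. The 13 were Pole3, Donson, Recql4, Topbp1, Wdhd1, Mtbp, Dscc1, Chtf18, Atad5, Pclaf, Mms22l, Tonsl and Asf1b. Topbp1, which helps the helicase to start, had 124, 114 and 147 CPM in M1, M2 and M3, 85, 60.8 and 94.3 CPM in M4, M5 and M6, 84.9 CPM in the library labelled NI1, and 25.7 and 21.7 CPM in NI2 and NI3. M5 was the lowest tumor, below the library labelled NI1, and NI2 and NI3 were lower still. For Topbp1 the log2 fold change was 1.24 (adjusted p = 0.19, standard error 0.45) with 9 libraries and 2.13 (adjusted p = 0.0105, standard error 0.35) without the library labelled NI1. Tonsl, which reads histones behind the fork, had 2.89 (adjusted p = 0.00119, standard error 0.25), and Atad5, which unloads the clamp, had 3.2 (adjusted p = 0.00939, standard error 0.5). Genes not called included all 3 subunits of RNase H2 (Rnaseh2a, Rnaseh2b and Rnaseh2c), the small polymerase subunits Pole4 and Pold4, and topoisomerase 1 (Top1), at -0.16 (adjusted p = 0.746, standard error 0.27).

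The 12 markers of G2 phase and mitosis were read as a check of the cell cycle beyond replication. With 9 libraries edgeR's test called 0 of 12, and all 12 had an unadjusted p under 0.05 (10.7% of all genes). Without the library labelled NI1, 9 of 12 were higher (5.34% of all genes), with a median log2 fold change of 2.31. Their sum was 361 to 1059 CPM in tumors, 339 CPM in the library labelled NI1, 183 CPM in NI2 and 58.7 CPM in NI3. M3 had the largest sum and M6 the smallest among the tumors, and the library labelled NI1 lay just below M6. NI2 had a larger sum than NI3. Among the replication genes it had more CPM of Cdc6, Pole, Ticrr and Clspn, and less of Orc2, Orc5, Orc6, Gins3 and Rfc1. The sums over all 52 members were 890 CPM in NI2 and 859 CPM in NI3. These differences between 2 single libraries were not tested.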

How the data were processed

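RNA of 6 tumors and 3 islet samples had been sequenced from single ends with a kit that does not mark the strand. Per the labels and the submitters' processing notes, reads were trimmed with Trimmomatic 0.38 and quantified with Salmon 1.4.0 against mm10. The deposited table holds the authors' estimated counts per gene as whole numbers, although its name speaks of TPM. Multi-mapping reads were shared out by that tool. Gene names came from the GENCODE annotation of the same build (54094 of 54347 IDs; the rest held 0.0121% of counts).

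Groups followed the labels. The study calls its replicates biological, but the labels tie no sample to a named animal, and p-values measure the spread between these samples. edgeR 4.0.16 (R 4.3.3) gave TMM-scaled CPM and a two-sided quasi-likelihood test on genes with 1 CPM or more in at least 3 libraries, with Benjamini-Hochberg adjustment over all tested genes and a threshold of 0.05. The standard error is the log2 fold change over the root of F. DESeq2 1.42.0, limma 3.58.1, other scalings and filters, removal of mitochondrial genes, blocking by replicate number and dropping each library in turn were alternatives. The fits were tested on simulated data. Totals ran from 36468280 to 63637175 counts. Intervals were not computed, and 3 counts was taken as the floor.

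The 52 members and all lists were chosen with earlier results of these data known. All members are named. Values in every library are given for a fixed set by role and for the 3 members with the largest and the 3 with the smallest log2 fold change, and a few others were added after their values were seen (Mcm8, Mcm10 and Topbp1). Promoter words and overlaps of exons were counted by Python 3.11.15 with pandas 2.3.3, and plots were drawn with matplotlib 3.10.9. Some marker genes of other cell types are not reported here.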

Additional observations from a re-analysis of the deposited data

Results flagged for a closer look

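Among the 6 tumors, 4 of the 52 replication genes had 1 library far from the others, where the gap to the nearest tumor divided by the whole range passed Dixon's 95% critical value for 6 samples. Chance flags about 1 in 20 groups, or 2.6 of 52. The ratio was 0.7258 for Pole in M3, 0.6485 for Chaf1a in M3, 0.6402 for Mcm7 in M3 and 0.633 for Orc4 in M2, and each of these libraries lay above the other 5 tumors. M3 was the highest tumor for 33 of the 52 genes. The cause was not tested.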

How the results depend on the processing

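No member or other replication gene changed direction past the threshold under any alternative, and the count of members called lower was 0 in every setting. With 9 libraries the count of members called higher was 0 under edgeR's other scalings and filters and under limma, and 22 under DESeq2 (4.92% of all genes). Leaving out 1 library gave 0 to 42. It was 42 when the library labelled NI1 was dropped (819 of 15350 genes) and 1 when M6 was (80 of 15417 genes). Without the library labelled NI1 the count was 42 with RLE scaling, without a filter, without mitochondrial genes and with robust fitting, 45 under DESeq2 and 43 under limma, and leaving out a further library gave 8 to 42, with 8 without NI3 and 19 without NI2. For functional tumors against islets the count was 14 under DESeq2 (4.99% of all genes), 1 without a filter (192 of 31582 genes) and 0 to 43 with 1 library left out. For non-functional tumors it was 0 to 38 with 1 library left out. In these 3 comparisons the highest count came when the library labelled NI1 was dropped. Of all genes, 5.16% were then higher in functional and 2.88% in non-functional tumors. Functional against non-functional tumors gave 0 in every setting, and 32 of its gene values over all settings changed sign, none of which passed. Other replication genes gave 6 under DESeq2 (4.92% of all genes) and 0 to 13 with 1 library left out. The 13 came without the library labelled NI1 (5.34% of all genes). Leaving out a tumor as well gave 12 to 14, and fewer passed when NI2 or NI3 was left out instead. The cause of these differences was not tested, but a lone islet library gives the fit no spread of its own.

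Functional tumors and islets share the replicate numbers 1, 2 and 3 in their labels. Deviations of same-numbered libraries from their group means had correlations of -0.05, 0.03 and -0.16, against -0.12 to 0.18 for the other pairs. With 3 libraries per group these values cannot decide whether samples were paired, and the number was treated as a name. With the replicate block, 0 members were called for functional tumors against islets (35 at an unadjusted p under 0.05) and 0 for all tumors (38).

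All 52 members lay above the floor of 3 counts in every library, and the effect of depth on the calls was not tested.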
